A study of Mus musculus with 160 samples.

Results

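The 7 members of the Dok (downstream of kinase) adaptor family, Dok1 to Dok7, and 2 partners of Dok3, Inpp5d and Grb2, were followed in distal colon RNA from 4 mouse knockout lines, 1 of which lacks Dok3 by its label. These 9 genes were taken by name from the 39179 genes counted in each of 160 libraries. The libraries labelled HO, for homozygous knockout, and WT, for wild type, numbered 26 and 21 for Dok3, 16 and 15 for Nckap1l, 18 and 24 for Dock2 and 20 and 20 for Gpsm3. The Dok3 line carried the strain label 129 and the other 3 lines the label C57BL6/J. All Dok3 and Gpsm3 animals were male. Every line had a course of 5 days of dextran sulfate sodium (DSS), a detergent-like polymer that injures the colon epithelium, with tissue taken on day 10, or on day 12 in the Nckap1l line. The labelled DSS concentration was 3.5% in the Dok3 line and 3% in the Dock2 and Gpsm3 lines, and the Nckap1l labels gave none. Which animals drank DSS and which water is not given for single libraries, and the groups were analysed without regard to it. Per the methods of the study, existing knockout models were re-derived with C57BL6/J females, kept by crossing heterozygotes and housed as mixed-genotype littermates, and a first round of the Dok3 experiment used a lower DSS concentration than the label. No label ties a library to a litter or a cage.

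Dok proteins have no catalytic activity of their own. They carry a membrane-binding pleckstrin homology domain and a phosphotyrosine-binding domain in front of a tail of tyrosines, and once these are phosphorylated the tail recruits inhibitors of signalling. Dok1 and Dok2 recruit the Ras GTPase-activating protein and restrain Ras signalling in blood cells. Dok3, found in B cells and myeloid cells, recruits Inpp5d, also known as SHIP1, a phosphatase that removes a phosphate from the lipid product of PI3-kinase, and Grb2, an adaptor that links phosphotyrosines to the Ras exchange factor Sos. Dok4, Dok5 and Dok6 are known from neurons and from the receptor tyrosine kinase Ret, and Dok7 activates the kinase MuSK at the neuromuscular junction. In bulk tissue such as this colon, fewer cells of a type and less RNA per cell cannot be told apart.

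The total count per library was between 4344988 and 19993833 with a median of 15989625, and in the Dok3 line between 7514233 and 16689971. At these totals a level of 3 counts, the smallest taken as detected, stood for 0.15 to 0.69 CPM (the usual unit of counts scaled to library size). The markers of colon epithelium were high in every group of the Dok3 line, with a summed level of 1604 to 20140 CPM over 9 genes. Sample numbers in the titles of the Dok3 line fell into 2 runs with a gap between them, called here the first run (17 HO and 13 WT libraries) and the second run (9 HO and 8 WT), and the labels do not say what a run stands for.

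The genotype labels were set against genes of chromosome 13 that lie near Dok3, since these travel with the targeted allele through crosses. In the second run, 5 of 17612 genes (0.0284%) passed an adjusted p of 0.05 between the labels by edgeR's quasi-likelihood test with Benjamini-Hochberg adjustment, and all 5 were on chromosome 13, which held 644 (3.66%) of the genes tested. These 5 genes were picked by that call after their values were seen. Their difference in the second run is therefore no separate check of the labels. Within 15 Mb of Dok3, 223 genes were tested, and most did not pass. Zfp429, a zinc finger gene 11.86 Mb from Dok3, was at 0.18 to 0.796 CPM in the 9 HO libraries of the second run and at 4.71 to 8.92 CPM in the 8 WT libraries (log2 fold change -3.92, SE 0.717, adjusted p = 0.01645 by edgeR's quasi-likelihood test). Every one of the 113 libraries of the C57BL6/J lines was at 5.246 CPM or above. In the first run the same gene did not follow the labels, as 5 of 17 HO and 5 of 13 WT libraries were below 1 CPM. The rest spread from 3.99 to 8.77 CPM in HO and from 3.745 to 9.41 CPM in WT. Some of them, in both labels, lay below every C57BL6/J library, so the libraries above 1 CPM were not 1 uniform group. Unc5a, a netrin receptor gene 0.58 Mb from Dok3, likewise spanned 0.962 to 2.14 CPM in HO and 2.62 to 8.92 CPM in WT in the second run, and 0.929 to 9.34 CPM in HO and 1.22 to 8.604 CPM in WT in the first. Zfp457 was higher in HO in the second run (1.31 to 2.76 CPM against 0.246 to 0.558 CPM), at 0 to 0.976 CPM in the C57BL6/J lines, and from under 0.2 to about the level of second-run HO libraries in both labels of the first run (0.105 to 2.88 CPM in HO and 0.171 to 3.09 CPM in WT). Zfp874a and 4930525G20Rik were lower in HO in the second run, with log2 fold changes of -0.87 and -0.96. HO and WT below are therefore the labels of the libraries, and results on Dok3 are given pooled and within each run.

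**Figure D1:**
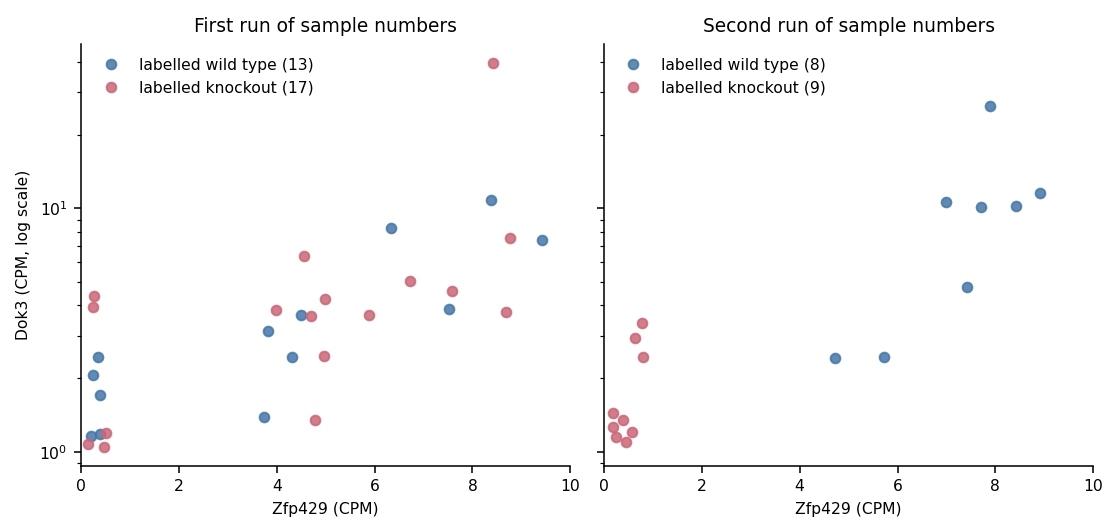
Level of Dok3 (CPM, log axis) against that of Zfp429 (CPM), a gene near it on chromosome 13, with 1 point per library of the Dok3 line, coloured by genotype label and split into panels by run of sample numbers. In the second run the labels separate on Zfp429 (HO at most 0.796 CPM, WT at least 4.71 CPM), a gene picked by its call there. In the first run both labels lie on both sides of 1 CPM, with the libraries above it spread from 3.745 to 9.41 CPM.

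Dok3 itself was lower in the libraries labelled HO in the second run and did not separate from WT in the first. In the second run Dok3 (ENSMUSG00000035711, GRCm38 chromosome 13, 55523231 to 55529296, minus strand, with 5 exon blocks) had a lowest, median and highest level of 1.09, 1.35 and 3.38 CPM in HO and of 2.42, 10.2 and 26.3 CPM in WT. Here 6 of the 9 HO libraries lay below every WT library and 6 of the 8 WT libraries lay above every HO library, so the ranges met only in part. On the log2 CPM scale with a prior count of 2, the mean was 0.84 ± 0.59 (SD, n = 9) in HO and 2.93 ± 1.17 (SD, n = 8) in WT, a difference of -2.09 (exact two-sided permutation test, p = 0.00074). In the first run Dok3 had a lowest, median and highest level of 1.05, 3.82 and 39.6 CPM in the libraries labelled HO and of 1.16, 2.46 and 10.9 CPM in those labelled WT. The 39.6 CPM came from a single HO library, number 17. On Zfp429 (8.43 CPM), Unc5a (9.34 CPM) and Zfp457 (0.304 CPM), library 17 lay on the side of the second-run WT libraries. The cause was not tested. Of the others, 2 HO libraries lay below every WT library and the rest overlapped. The means differed by 0.28 on the log2 CPM scale (two-sided permutation test, p = 0.524). Dok3 was above 1 CPM in all 26 HO libraries, and the counts are sums over the whole gene, which do not show the part of the gene the reads came from.

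**Figure D2:**
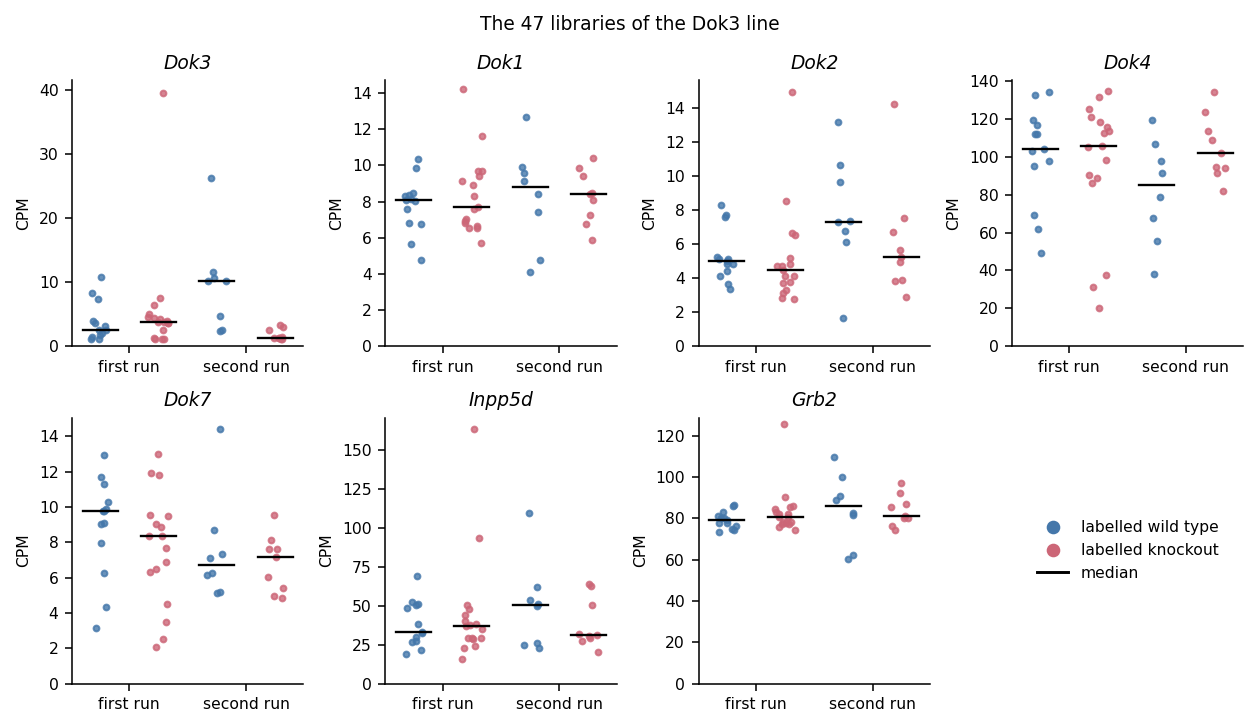
Levels of the 7 members above the filter in each library of the Dok3 line in CPM, by genotype label and run of sample numbers, with a line at each median. Dok3 is the gene whose second-run labels lie furthest apart (medians of 1.35 CPM in HO and 10.2 CPM in WT). The ranges of the labels overlap in both runs for every member shown, Dok3 included.

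Over the whole Dok3 line, none of 17612 genes (0.0%) passed an adjusted p of 0.05 between the labels by edgeR's quasi-likelihood test, 386 had an unadjusted p under 0.05, and DESeq2 called 3 genes and limma-voom 0. None of the 7 members tested was called, and Dok5 and Dok6 were below the filter on low counts. Dok3 had a pooled log2 fold change (labelled HO against WT) of -0.48 with a 95% interval of -1.26 to 0.30 (SE 0.388, adjusted p = 0.9996 by edgeR's quasi-likelihood test), and without HO library 17 it was -1.04 (SE 0.315, adjusted p = 0.848). The pooled difference of means, -0.58 on the log2 CPM scale, had a two-sided permutation p of 0.105, which became 0.0241 for a difference of -0.74 without that library. Library 17 had the highest Dok3 level of the HO label, so leaving it out could only lower the HO mean. The highest WT library, number 18 at 26.3 CPM, was kept, so the removal was from 1 label only. Within the first run none of 17612 genes (0.0%) was called (254 at an unadjusted p under 0.05), and Dok3 had a log2 fold change of 0.59 (SE 0.431, 95% interval -0.27 to 1.46). Within the second run, in the fit that shares its spread with the first, Dok3 fell short of the threshold with a log2 fold change of -2.44 (SE 0.581, 95% interval -3.61 to -1.27, adjusted p = 0.2122). Fitted on the 17 libraries of the second run alone, a choice made after the labels were set against chromosome 13, 17 of 17648 genes (0.0963%) passed the test. Dok3 was among them, with a log2 fold change of -2.45 (SE 0.437, adjusted p = 0.0372), and 14 of the 17 lay on chromosome 13. The difference between the runs in the HO-against-WT fold change of Dok3 was -3.04 (SE 0.72, 95% interval -4.49 to -1.59). It had an unadjusted p of 0.0001176 by edgeR's quasi-likelihood test and an adjusted p of 0.259, with 0 of 17612 genes called (0.0%) and 1115 at an unadjusted p under 0.05, and without HO library 17 it was -2.37 (adjusted p = 0.448).

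The median log2 fold changes of neutrophil and general leukocyte markers had the same sign as that of Dok3 in each run, while other marker lists did not all do so. All 8 neutrophil markers were lower in HO in the second run, 5 of them at an unadjusted p under 0.05 (1421 of all genes, or 8.07%, were so) and 0 after adjustment. Their median log2 fold change was -3.19, against -0.03 over all genes tested, and their summed level was 5.39 to 267 CPM in HO (median 15.8) and 2.14 to 4325 CPM in WT (median 28.1). The 8 markers of all leukocytes had a median of -0.61 and the 9 epithelial markers a median of 0.34, with none called. Macrophage (10 of 11 lower, median -0.31), T cell (8 of 8 lower, median -0.56) and B cell markers (8 of 8 lower, median -0.18) were lower in value too, as were 6 of 6 tested markers of stratified squamous epithelium (median -2.47) and 8 of 8 of striated muscle (median -1.36), none of them called. In the first run the log2 fold changes of the 8 neutrophil markers were all above 0, with a median of 2.06. Leukocyte markers had a median of 0.49. The summed neutrophil level there was 1.93 to 8746 CPM in HO (median 10.97) and 3.23 to 603 CPM in WT (median 13.75). By the median library HO was thus the lower label, unlike by fold change. Fold changes of B cell and T cell markers were mostly below 0 there, with 8 of 8 and 7 of 8 lower (medians -0.10 and -0.21). Striated muscle markers were below 0 too (8 of 8 lower, median -1.13). A myeloid score, the mean of 16 macrophage and neutrophil genes each scaled over the line, ranged from -0.81 to 1.09 in HO and from -1.12 to 2.12 in WT in the second run, and HO library 17 of the first run had the highest score of the line, 2.74. With this score as a covariate in the second run, where 16 of 17632 genes (0.0907%) were called, Dok3 kept a log2 fold change of -1.92 (SE 0.282, adjusted p = 0.01097 by edgeR's quasi-likelihood test). With the score as a covariate over the whole line Dok3 was at -0.54 (SE 0.269, 95% interval -1.08 to 0.01, adjusted p = 0.9057), beside -0.48 without it. The part of the other markers, and of the score within the first run, was not tested.

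The paralogs that share the blood-cell role of Dok3 overlapped between the labels. Dok1 (chromosome 6) had a lowest, median and highest level of 5.71, 8.18 and 14.2 CPM in the 26 libraries labelled HO and of 4.13, 8.12 and 12.7 CPM in the 21 labelled WT. The ranges were nearly the same, and the log2 fold change was 0.06 (95% interval -0.14 to 0.27), which bounds a change of Dok1 with the label more closely than for any paralog tested. Dok2 (chromosome 14) stood at 2.79, 4.70 and 14.96 CPM in HO and at 1.67, 5.26 and 13.2 CPM in WT. Its log2 fold change was -0.19 (95% interval -0.57 to 0.19) in the whole line and -0.38 (95% interval -0.99 to 0.24) in the second run. With the myeloid score in the second-run fit the value for Dok2 was -0.12 and that for Dok1 was 0.16, and neither passed the test. Where Dok3 was low, in the second run, the upper ends of the intervals were 0.33 for Dok1 and 0.24 for Dok2.

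The paralogs known from nerve and muscle were present at very different levels. Dok4 (chromosome 8) was an abundant transcript, with 20.03, 105.4 and 134.7 CPM in HO and 38.0, 98.0 and 134.4 CPM in WT, and a log2 fold change of 0.08 (95% interval -0.22 to 0.38). On Dok4, 4 of 8 second-run WT libraries lay below every HO library, yet the value there, 0.34 (95% interval -0.16 to 0.84), did not pass the test. Of the exon bases of Dok4, 31.2% are shared with Polr2c, an RNA polymerase subunit gene on the opposite strand, and whether the counting used strand is not stated, so reads of the shared part cannot be told apart. Dok7 (chromosome 5) stood at 2.05, 7.62 and 13.01 CPM in HO and 3.17, 8.72 and 14.4 CPM in WT, with a log2 fold change of -0.19 (95% interval -0.52 to 0.14). Dok5 (chromosome 2) was at 0 to 0.948 CPM in HO and 0.134 to 1.49 CPM in WT. Dok6 (chromosome 18) was at 0 to 0.603 CPM in HO and 0 to 0.720 CPM in WT, at or near 3 counts in many libraries, so a difference in Dok6 was not detectable at this depth.

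Neither partner of Dok3 differed between the labels past the threshold. Inpp5d (ENSMUSG00000026288, chromosome 1, 87620312 to 87720507, plus strand) had a lowest, median and highest level of 15.7, 33.5 and 163 CPM in HO and of 18.98, 38.2 and 109.6 CPM in WT. HO library 17 gave the highest value, 1 other HO library lay below every WT library, and the rest overlapped. The pooled log2 fold change lay within 0.01 of 0, with a 95% interval of -0.43 to 0.42, and was -0.18 without library 17. In the second run Inpp5d was at -0.39 (95% interval -1.09 to 0.31), which came to -0.05 (SE 0.174) with the myeloid score as a covariate. Grb2 (chromosome 11) varied least of the members relative to its mean, with 74.5, 81.0 and 125.5 CPM in HO and 60.3, 80.2 and 109.6 CPM in WT, and a log2 fold change of 0.04 (95% interval -0.07 to 0.14).

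**Figure D3:**
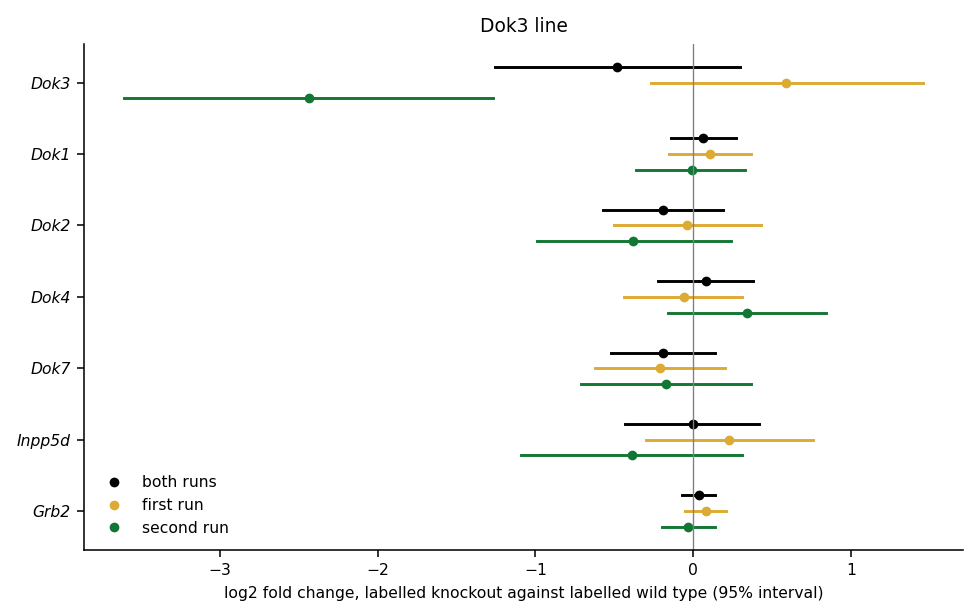
Log2 fold change of each member tested, HO against WT labels, with its 95% interval, for the Dok3 line with both runs together and for its first and second run. Of these only the second-run interval of Dok3 (-3.61 to -1.27) leaves out 0, and the intervals of Grb2 are the narrowest.

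In the 3 lines whose deleted gene acts on leukocyte movement or signalling, no member passed the test either. The deleted genes themselves were lower in HO, with overlapping groups, and among them only Gpsm3 passed (log2 fold changes of -1.09 for Nckap1l, -0.62 for Dock2 and -2.06 for Gpsm3, adjusted p = 0.9996, 0.2103 and 0.0001005 by edgeR's quasi-likelihood test). With the Nckap1l mutation, which affects the blood-cell actin regulator Hem1, none of 17947 genes (0.0%) was called by edgeR's quasi-likelihood test, 806 had an unadjusted p under 0.05, DESeq2 called 21 and limma-voom 0. With that of Dock2, a Rac activator of lymphocytes, 6 of 17648 genes (0.034%) were called, and with that of Gpsm3, which binds G-protein subunits in leukocytes, 1 of 17560 (0.00569%). Dok3 had log2 fold changes of -0.58 (95% interval -1.34 to 0.19), -0.30 (95% interval -0.68 to 0.07) and 0.45 (95% interval -0.12 to 1.03) in the Nckap1l, Dock2 and Gpsm3 lines. Its level ranged from 1.72 to 9.41 CPM in HO and 1.28 to 20.9 CPM in WT of the Nckap1l line, from 2.26 to 6.36 and 1.88 to 14.2 CPM in the Dock2 line, and from 1.596 to 19.9 and 1.13 to 11.02 CPM in the Gpsm3 line, so the groups overlapped in each. Inpp5d had values of -0.35, -0.16 and 0.40 in the same order. The smallest p values were those of Inpp5d in the Gpsm3 line (unadjusted p = 0.03566, adjusted p = 0.936) and of Grb2 in the Nckap1l line (log2 fold change -0.13, unadjusted p = 0.03638, adjusted p = 0.9996). Leukocyte markers differed in the same direction as Dok3 and Inpp5d in these lines, with medians over 8 genes of -0.38, -0.27 and 0.45. The 8 B cell markers were all lower in HO of Nckap1l and Dock2, with medians of -2.55 and -0.90, and all higher in the Gpsm3 line, with a median of 0.56, while none was called. Macrophage markers did not follow this order, with 8 of 11 higher in HO of Nckap1l (median 0.21), 7 of 11 higher in Dock2 (median 0.04) and 11 of 11 higher in Gpsm3 (median 0.28), nor did T cell markers in the Nckap1l line (5 of 8 higher, median 0.10). With the myeloid score as a covariate Dok3 was at -0.49 and Inpp5d at -0.38 in the Nckap1l line, at -0.28 and -0.16 in the Dock2 line, and at 0.06 and 0.11 in the Gpsm3 line, and none passed the test. The part of the lymphocyte markers was not tested.

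Between wild-type animals Dok2 and Inpp5d passed the test by line, in a contrast where a large share of all genes did. Dok2 was at 1.67, 5.26 and 13.2 CPM in the 21 WT libraries of the Dok3 line and at 2.15, 3.96 and 8.79 CPM in the 32 male WT libraries of the Dock2 and Gpsm3 lines. The ranges overlapped, and the log2 fold change of the Dok3 line against the mean of the other lines was 0.60 (SE 0.154, adjusted p = 0.003649 by edgeR's quasi-likelihood test). Inpp5d was at 18.98, 38.2 and 109.6 CPM in the Dok3 line and at 18.4, 27.4 and 62.2 CPM in the others, a log2 fold change of 0.49 (SE 0.148, adjusted p = 0.01344). These were 2 of 8 members tested, against 4031 of 18442 genes (21.9%) called in either direction, 12.3% higher and 9.56% lower in the Dok3 line. Dok3 at 0.41 (adjusted p = 0.3005) and Dok4 at -0.20 (adjusted p = 0.1196) did not pass, and Dok1, Dok5, Dok7 and Grb2 lay between -0.05 and 0.10. Against the Dock2 line alone the values of Dok2 and Inpp5d were 0.50 and 0.40, and neither passed the test (adjusted p = 0.1516 and 0.2539). With only the 8 second-run WT libraries of the Dok3 line, 21.3% of 18606 genes were called. This set was chosen after the labels were set against chromosome 13. Dok3 at 1.10, Dok2 at 0.93, Inpp5d at 0.72 and Dok4 at -0.38 all passed there. The median of Dok3 was 10.2 CPM in these 8 libraries and 2.46 CPM in the 13 WT libraries of the first run. Of the lymphocyte markers, 8 of 8 T cell and 3 of 8 B cell genes were called higher in the Dok3 line, with medians of 0.70 and 0.82 against 0.01 over all genes tested, and 3 of 8 leukocyte markers with a median of 0.55. Strain, line, DSS concentration and experiment cannot be told apart in this comparison, and the part of the marker difference was not tested.

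Across animals of the Dok3 line the members divided by how they moved with the myeloid score. In the 21 WT libraries 34.4% of 17601 genes had a slope on the score that passed the test, 17.1% upward and 17.3% downward, and in the 26 HO libraries 57.5% did, 29.8% upward and 27.7% downward. The genes of the score were left out of those tested. Of 7 members tested, 5 passed in WT and 7 in HO, the score being measured in the same libraries as the members. In WT, Dok3 rose by 0.94 on the log2 scale per unit of score (SE 0.209), Inpp5d by 0.62 (SE 0.072), Dok2 by 0.50 (SE 0.093) and Dok1 by 0.21 (SE 0.068). Dok7 fell by 0.43 per unit (SE 0.097), and Dok4, at -0.21 (adjusted p = 0.09225 by edgeR's quasi-likelihood test), and Grb2, at 0.07, did not pass. In HO the slopes were 0.84 for Dok3, 0.64 for Inpp5d, 0.55 for Dok2, 0.19 for Dok1, 0.10 for Grb2, -0.46 for Dok7 and -0.45 for Dok4. Without HO library 17, whose score is the highest, the HO slopes of Dok3 (0.33, adjusted p = 0.166 by edgeR's quasi-likelihood test), Dok1 (0.13) and Grb2 (0.03) no longer passed. Those of Inpp5d (0.52), Dok2 (0.49), Dok7 (-0.36) and Dok4 (-0.35) passed. The share of all genes that passed without library 17 is not given, so these passes set the members apart from no other genes. The HO slope of Dok3 thus rests on library 17, which lay with second-run WT libraries on Zfp429, Unc5a and Zfp457. Leaving it out of the HO slopes was a choice made after seeing the data. For no gene of 17601 (0.0%) did the slopes of the labels differ past the threshold by edgeR's quasi-likelihood test or limma-voom, with 1228 at an unadjusted p under 0.05. The difference for Dok3 was -0.10 (95% interval -0.65 to 0.46). Without HO library 17 it was -0.53 (95% interval -1.10 to 0.04, adjusted p = 0.6457 by edgeR's quasi-likelihood test), with no WT library left out to match.

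**Figure D4:**
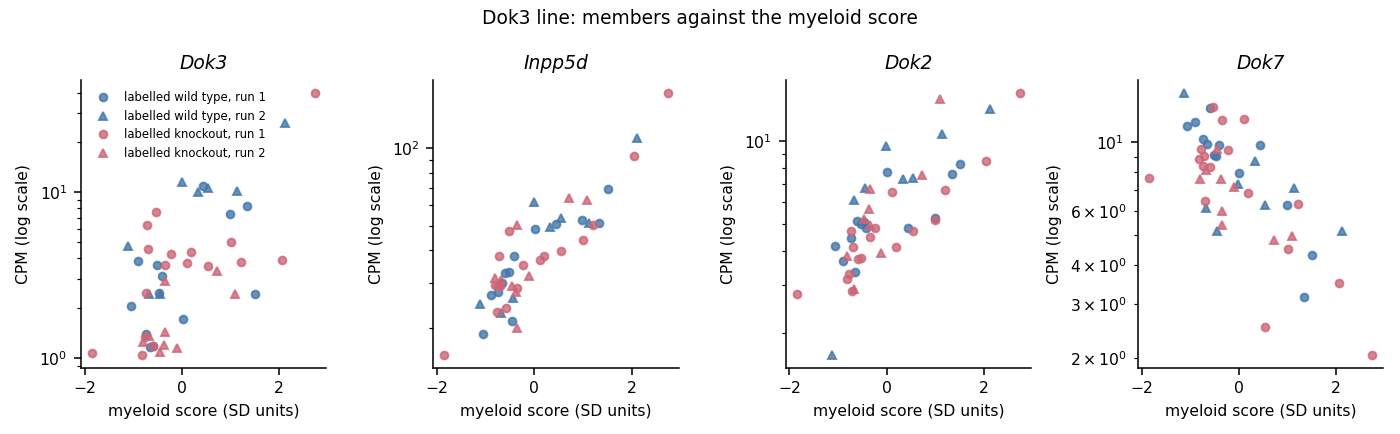
Level of Dok3, Inpp5d, Dok2 and Dok7 (CPM, log axis) against the myeloid score in each library of the Dok3 line, coloured by genotype label, with the 2 runs marked by symbol. Inpp5d and Dok2 climb with the score in both labels and Dok7 declines, and the HO library at a score of 2.74 carries the highest Dok3 level (39.6 CPM) and Inpp5d level (163 CPM) of the line.

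Dok3 and Inpp5d were also the pair of members whose levels ran closest together across all lines. Over the 80 WT libraries, after removal of the mean of each line and sex, Spearman's rho between them was 0.82, and over the 80 HO libraries it was 0.80. These correlations describe libraries that share cell content and depth and are no test of a link. The windows before the RefSeq start of the 2 genes are shown for this reason, read 5′ to 3′ on the strand of the gene from the RefSeq promoter table of GRCm38.p6, with bases inside GENCODE exons left out. They were searched on both strands for GGAAGT and for the longer GAGGAAGT, which contains it, letters that resemble the site of PU.1 and other ETS factors of blood cells. Matches are in capitals. The RefSeq start of Dok3 used here, 55528538, lies inside the longer gene annotated by GENCODE, whose start is at 55529296, so the window of Dok3 falls within that gene and outside its exons, and the 16 bases next to the start were left out as exon. The Dok3 window is chr13:55528555-55528788 (minus strand) and the Inpp5d window is chr1:87620062-87620311 (plus strand).
Dok3: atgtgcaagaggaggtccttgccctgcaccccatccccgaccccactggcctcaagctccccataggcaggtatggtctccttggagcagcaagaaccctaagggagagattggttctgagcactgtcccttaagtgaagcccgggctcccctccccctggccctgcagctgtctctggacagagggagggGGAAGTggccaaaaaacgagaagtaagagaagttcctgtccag
Inpp5d: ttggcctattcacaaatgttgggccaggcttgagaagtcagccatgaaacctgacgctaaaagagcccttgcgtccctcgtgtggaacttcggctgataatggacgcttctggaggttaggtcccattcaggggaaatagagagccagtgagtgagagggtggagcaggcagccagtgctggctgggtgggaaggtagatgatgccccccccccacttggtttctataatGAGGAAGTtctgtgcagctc

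The short motif began 59 bases before the RefSeq start in Dok3, the 16 left-out bases included, and 18 bases before it in Inpp5d, and was present in 19.7% of 32851 windows of 250 bases. The longer motif lay in the Inpp5d window, overlapping the short one, and was present in 2.44% of windows. Dok7 and Grb2 had 2 windows each, and a result is given here for a single Dok7 window only. That window held neither motif. With the short motif in only 19.7% of windows, its absence there is the usual outcome and sets up no contrast with Dok3 and Inpp5d. The match of letters is a description of the Dok3 and Inpp5d windows and shows neither binding nor regulation.

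The genes most like each member, by Spearman's rho over the 80 WT libraries among 16279 genes, differed by member. For Dok3 they were Napsa (0.89), Sash3 (0.87) and Arhgap15 (0.87), and for Inpp5d they were Hcls1 (0.95), Akna (0.95) and Arhgap30 (0.94), with Sash3, Hcls1 and Arhgap30 known from blood cells. Inpp5d also ran with the 8 leukocyte markers at a median rho of 0.93, and Dok3 with them at a median of 0.79. The medians over all genes were -0.03 and -0.02. With B cell, macrophage and neutrophil markers the median rho was 0.71, 0.64 and 0.61 for Dok3. For Inpp5d it was 0.61, 0.82 and 0.77 in the same order. Dok2 was most like Emilin2 (0.80), Limk1 (0.78) and Piezo1 (0.78), and its median rho was 0.67 with neutrophil markers and 0.03 with B cell markers. Dok1 was most like Tcirg1, Apobec3 and Unc93b1 (0.77 to 0.78), with medians of 0.65 with B cell and 0.64 with leukocyte markers. In the HO libraries the values of these 3 genes were 0.60, 0.36 and 0.64. Dok4 was most like Grtp1 (0.84), Tmco3 (0.83) and the epithelial adhesion gene Epcam (0.83), and its median rho with 9 epithelial markers was 0.64. Dok7 was most like Foxp4, Spred2 and Wnk4 (0.69 to 0.71), and its median rho was -0.44 with neutrophil and 0.29 with epithelial markers. Grb2 was most like Etnk1, Syvn1 and Helz2 (0.70 to 0.72), values that were 0.46 to 0.53 in the HO libraries. For Dok5 and Dok6, near the limit of detection, the highest values were 0.59 with Gas7 and 0.58 with Npl, and in HO libraries the same pairs gave 0.38 and 0.27.

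Per length, Dok4 and Grb2 were the most abundant members in the colon. On a scale of CPM per kilobase of exon over the 80 WT libraries, the median was 33.9 for Dok4, 28.1 for Grb2, 4.13 for Inpp5d, 3.84 for Dok1, 1.75 for Dok3, 1.59 for Dok2, 1.53 for Dok7, 0.246 for Dok5 and 0.0136 for Dok6. Dok4 exceeded Grb2 in 63 of 80 libraries, an order that the exon bases shared with Polr2c (31.2% of those of Dok4) leave uncertain, and Grb2 exceeded Inpp5d in 80 of 80 with no overlap between libraries (20.7 and above against 16.7 and below). Inpp5d and Dok1, adjacent in this order, were not apart beyond their spread, as Inpp5d was the higher in 51 of 80 libraries, and the same held for Dok3 and Dok2 (52 of 80) and for Dok2 and Dok7 (35 of 80). Dok1 exceeded Dok3 in 75 of 80. Dok7 exceeded Dok5, and Dok5 exceeded Dok6, in every one of the 80. Dok6 was under 3 counts in 34 of 80 WT libraries and Dok5 in 5 of 80.

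**Figure D5:**
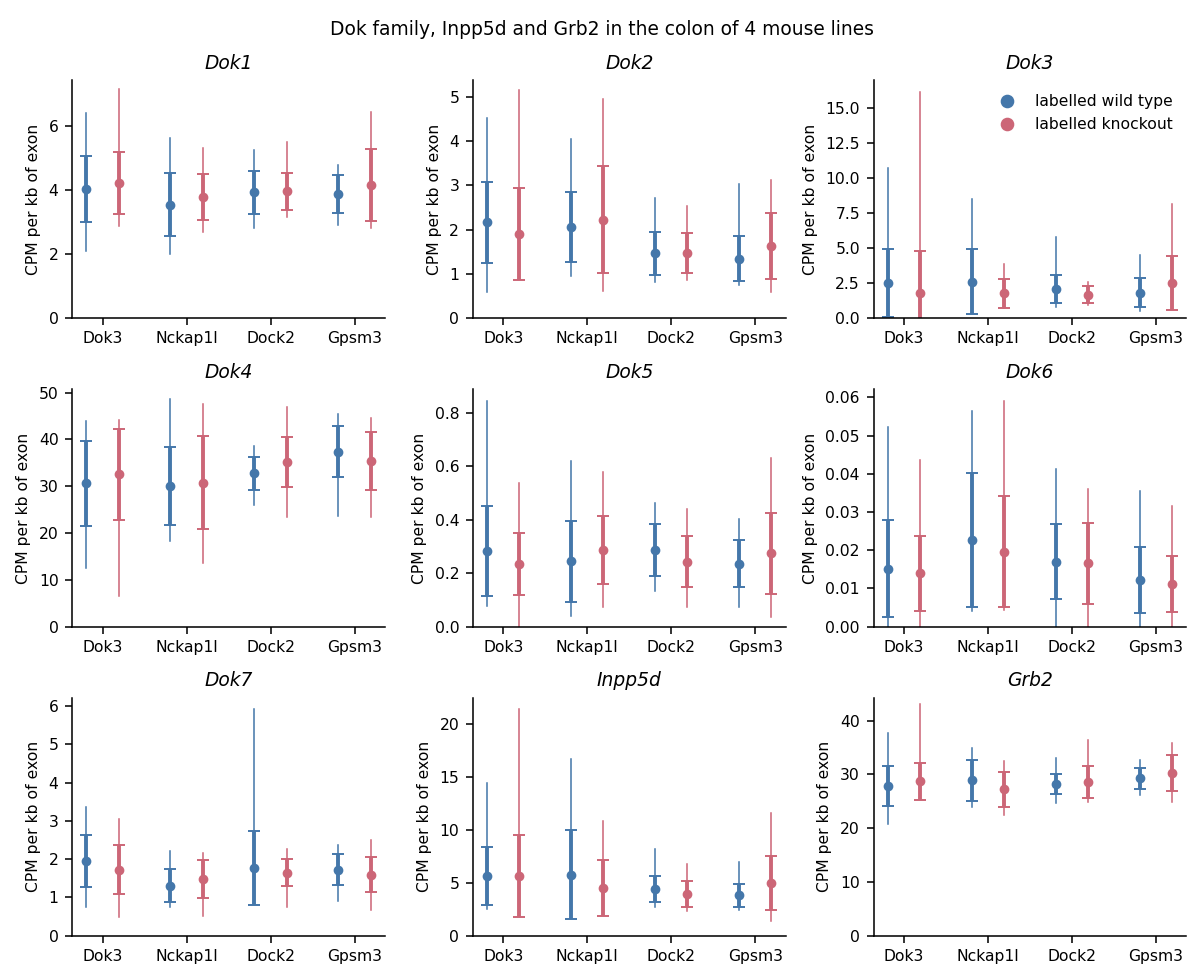
Level of each member in the HO and WT libraries of the 4 lines in CPM per kilobase of exon, with a point at the mean, a thick bar for 1 SD either side of the mean (cut at 0) and a thin line from the lowest to the highest library, each member on its own axis. Dok4 and Grb2 lie at about 30 in every group and Dok6 below 0.06.

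No gene of the wider pathways of the family passed the test between the labels of the Dok3 line. Of the Ras, Abl and docking partners of Dok proteins 24 of 25 were tested, 10 were higher and 14 lower in HO, 0 were called and the median log2 fold change was -0.01, beside a median of -0.0 over all genes. Among those with the smallest p values were the Ras GTPase-activating protein Rasa1 at -0.04 and the ubiquitin ligase Cblb at 0.07. Of the B cell receptor signalling chain, in which Dok3 acts as a brake, 15 of 15 were tested, 5 were higher and 10 lower, with a median of -0.09. Its 3 smallest p values were those of the inhibitory receptor Cd22 at -0.26, the kinase Prkcb at -0.13 and the adaptor Bank1 at -0.19. Of the Toll-like receptor and interferon beta route 13 of 15 were tested, 11 were higher, and the median was 0.05, with the kinase Tbk1 at 0.06, the DNA receptor Tlr9 at -0.25 and the kinase Ikbke at 0.10. Of 16 phosphoinositide phosphatases and kinases 8 were higher and 8 lower, with Inpp5b at -0.06, Synj1 at 0.05 and the PI3-kinase subunit Pik3r5 at 0.23. Of the receptors and junction genes of Dok4 to Dok7 14 of 18 were tested, 11 were lower, and the median was -0.08, with the neurturin receptor Gfra2 at -0.25, the acetylcholine receptor subunit Chrnb1 at -0.21 and the neurotrophin receptor Ntrk3 at -0.32. In the second run the counts called in the same lists were also 0, with medians from -0.27 for the B cell receptor chain to -0.03 for the Toll-like receptor route.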

How the data were processed

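RNA from distal colon was sequenced as stranded, ribosome-depleted libraries. The authors aligned reads with STAR to mm10 and deposited raw gene counts made with featureCounts of Subread, 1 table per sample, versions and strand setting not given in the sources used here; the counts of 39179 genes were used as deposited. Groups came from the labels. Genes passing filterByExpr were tested with edgeR 4.0.16 (R 4.3.3), TMM scaling and the quasi-likelihood test, each line alone, sex a covariate where both sexes occurred; a gene was called at a Benjamini-Hochberg adjusted p of 0.05. Alternatives were DESeq2 1.42.0, limma-voom 3.58.1 (the method of the study), RLE scaling, no filter, covariates and left-out libraries. Permutation tests used 100000 resamples, or all of them for the second run, on log2 CPM with a prior count of 2. Scripts were tested on simulated data. Gene positions came from GENCODE vM21, which matched 96.0% of gene identifiers and 99.67% of counts. Nothing says that libraries came from unrelated litters or cages, so p-values measure the spread between these samples. CPM limits cover counting error only. The 9 genes, the gene lists, the marker lists and the myeloid score were chosen with earlier results of these data known. Every member was named, with the 3 genes of smallest p from each pathway list and the 3 genes most like each member; marker lists are given by counts and medians, and 1 gene that this rule names is not reported here. Promoter windows were present in the table for Dok3, Inpp5d, Dok7 and Grb2.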

Additional observations from a re-analysis of the deposited data

Results flagged for a closer look

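The genotype difference of Dok3 in the Dok3 line was -3.04 on the log2 scale in the second run of sample numbers less the first, singled out because the test of the difference between the runs gave an unadjusted p of 0.0001176 by edgeR's quasi-likelihood test (adjusted p = 0.259). In the second run Dok3 was lower in HO by 2.44, and in the first the value was 0.59. Zfp429, Unc5a and Zfp457 on chromosome 13, picked by their call in the second run, separated the labels there and not in the first. Their separation in the second run follows from that choice, and the cause of the difference between runs was not tested.

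The lowest WT library of the second run for Dok2 had a log2 CPM of 0.85 (1.67 CPM, 25 counts), singled out because its gap to the nearest library was large for the range of its group. This library, WT number 16, had the lowest myeloid score of the WT libraries in that run, -1.12, and the highest Dok7 level of the line, 14.4 CPM. It was 1 of 18 groups searched in this way, and chance alone marks about 1 group in 20.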

How the results depend on the processing

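Of 317 values for single genes under other settings, 293 kept their direction and side of the threshold, 13 changed sign, 6 gained and 5 lost their call. In the Dok3 line the number of genes called rose from 0 to 3 with DESeq2, 15 with no filter on low counts, 17 in the second run alone and 16 there with the myeloid score, the last 2 settings being chosen after seeing the data. Dok3 passed in those 2 (-2.45 and -1.92). Its single-value difference passed without HO library 17 (-0.74), a removal of the highest library from 1 label only. The slope of Dok3 on the myeloid score in HO lost its call without that library (0.33), a setting also chosen after seeing the data. In the Nckap1l line the count went from 0 to 21 with DESeq2, 27 with no filter and 1 with the score, in the Dock2 line from 6 to 69, 31 and 10, and to 0 with limma-voom, and in the Gpsm3 line from 1 to 4 with DESeq2 and 32 with no filter. The wild-type contrast gave 1058 calls against the Dock2 line only. Signs changed only for values near 0. In the Dok3 line these were Dok1 (-0.01) and Grb2 (-0.03) in the second run alone and Inpp5d (0.0) with the run as covariate; in the Nckap1l line Dok4 with no sex covariate (0.03). Without HO library 17, Dok7 was -0.02 in the difference between runs, and the slope differences of Dok7, Inpp5d and Grb2 were 0.04, -0.05 and -0.04, with Dok7 at 0.01 by limma-voom. In the wild-type contrast they were Dok5 (-0.07) and Dok7 (-0.06) against the Dock2 line, and Dok7 (-0.07) and Grb2 (0.01) with the second run only. That last setting was also chosen after seeing the data. The causes were not tested. No paired analysis was possible because replicate numbers followed accession order and titles shared no number between genotypes. Depth limits Dok5 and Dok6, and the treatment of each animal, unknown here, could not be modelled.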
